A study of Mus musculus with 2 samples.

Results

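The T cell receptor beta locus segments described here were all genes whose GENCODE M21 name starts with Trbv, Trbd, Trbj or Trbc. They numbered 53 of the 55536 genes in the larger of 2 gene tables, and comprised 35 V, 2 D, 14 J and 2 C segments. All lie on mouse chromosome 6 (mm10), between 40891229 and 41558452, a span of 667 kb. The annotation lists 22 of the V segments as V genes and 13 as V pseudogenes, and 1 J segment, Trbj2-6, as a pseudogene.

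The cells were regulatory T cells that the labels call inflammation-experienced, and their polyadenylated RNA was sequenced. The donor was male, adult and 6 months old, of the strain Foxp3CreERT2 x Rosa26YFP. In this strain a tamoxifen-inducible Cre recombinase is made from the Foxp3 gene, so it acts in regulatory T cells, and the Rosa26 locus carries a YFP reporter. The labels trace the primary cells to bone marrow hematopoietic cells and give neither the inflammatory stimulus nor the number of animals. The single group held 1 biological replicate sequenced as 2 technical libraries, here technical replicates 1 and 2, made from sheared fragments of 100 to 300 bp, and no control group was analysed.

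A T cell receptor beta chain gene is assembled in the thymus. A D segment is joined to a J segment of its own or of the downstream cluster, and a V segment is then joined to the DJ unit, with bases added and removed at the junctions. The V region holds most of the antigen contact surface outside the junction, and the joined exon is spliced to Trbc1 or Trbc2, which encode the constant domain, the connecting peptide and the membrane anchor. Regulatory T cells carry rearranged alpha-beta receptors as other CD4 T cells do, and a mixed population of them uses many V segments. In bulk RNA, more cells using a segment and more RNA per cell cannot be told apart.

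The D and J segments are short, which decides how they can be counted. They are shown whole, from GENCODE M21 transcripts on the plus strand, with Trbd1 at chr6:41533201-41533212 and Trbd2 at chr6:41542163-41542176. Capitals in the J segments mark the letters TTNGGNNNNGG, searched on the coding strand alone, which cover the codons of the phenylalanine-glycine motif that J segments share. Trbj1-2 and Trbj2-7 had the most counts and Trbj2-2 the fewest in the smaller of the gene tables with both libraries summed, while Trbj1-6, Trbj1-7 and the pseudogene Trbj2-6 lack the letters.
Trbd1: gggacagggggc
Trbd2: gggactgggggggc
Trbj1-2: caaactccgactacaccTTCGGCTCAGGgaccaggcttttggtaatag
Trbj2-7: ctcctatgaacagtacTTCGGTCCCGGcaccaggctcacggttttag
Trbj2-2: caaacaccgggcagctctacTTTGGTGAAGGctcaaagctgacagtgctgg
Trbj1-6: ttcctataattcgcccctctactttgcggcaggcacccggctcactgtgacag
Trbj1-7: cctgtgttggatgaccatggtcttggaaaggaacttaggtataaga
Trbj2-6: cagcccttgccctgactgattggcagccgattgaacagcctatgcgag

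Of the 14 Trbj segments 11 hold these letters (78.6%), against 46 of 60 Traj segments (76.7%) and 10 of 20 other J segments of the T cell receptor and immunoglobulin loci (50%). Trbd1 is 12 nt long with 8 G and Trbd2 is 14 nt long with 10 G. The absence of the letters says only that they are not in those bases.

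The V segments end close to the junction, and their last 40 bases are shown for the 5 most counted segments and for the pair Trbv26 and Trbv24. Capitals mark the last TGT or TGC codon of the annotated reading frame, which codes for the cysteine that opens the junction. In Trbv24, annotated as a pseudogene, the frame was read from an ATG at base 1 of its transcript, and the capitals mark an in-frame stop codon.
Trbv13-2, chr6:41121793-41121832: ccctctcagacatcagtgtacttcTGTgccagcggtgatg
Trbv13-3, chr6:41130546-41130585: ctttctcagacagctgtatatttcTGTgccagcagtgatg
Trbv3, chr6:41048789-41048828: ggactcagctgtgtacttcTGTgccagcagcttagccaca
Trbv19, chr6:41179009-41179048: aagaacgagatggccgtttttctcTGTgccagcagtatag
Trbv5, chr6:41062764-41062803: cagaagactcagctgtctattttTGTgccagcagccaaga
Trbv26, chr6:41227954-41227993: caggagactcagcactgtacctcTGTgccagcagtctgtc
Trbv24, chr6:41218518-41218557: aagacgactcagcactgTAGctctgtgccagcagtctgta

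A cysteine codon lay in frame within the last 40 bases of all 22 Trbv genes and of all 108 Trav genes with an annotated coding part. The stop codon of Trbv24 starts 23 bases before the segment's end, so it lies ahead of the junction. RefSeq lists Trbv24 as a V segment and not as a pseudogene, and it lists Trbv29 as a V segment pseudogene where GENCODE M21 lists a V gene.

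The larger gene table held estimated counts, in which a read that fits several genes is divided between them, with totals of 15386195 and 13604571 in technical replicates 1 and 2. The smaller gene table held whole counts, with totals of 3581589 and 3271045. The SD given below is taken over these 2 libraries of the same sample, so it covers technical spread only. Brackets give 95% Clopper-Pearson intervals, which cover counting error only, because reads were not tagged by molecule. The T cell markers Cd3d, Cd3e, Cd3g, Cd247, Cd4 and Trac all stood at 1 TPM or more in both libraries, and so did the 5 regulatory T cell markers, with Foxp3 at 22.1 and 17.9 TPM (a level scaled for length and depth). Summed markers of other cells came to 3.24 and 2.50 TPM for B cells, 0.50 and 0.97 TPM for NK cells and 2.75 and 1.92 TPM for myeloid cells. Cd8a and Cd8b1, markers of CD8 T cells, summed to 14.0 and 13.4 TPM.

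Together the beta locus segments took 59381 estimated counts in technical replicate 1 and 51236 in technical replicate 2, which was 0.386% and 0.377% of all gene counts. V segments took 13468 and 11707 of these counts and C segments 45879 and 39504. J segments took 34 and 25, and D segments 0. A count was found for 34 members in technical replicate 1 and for 32 in technical replicate 2.

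V counts were spread over many segments. Trbv13-2 (mouse V beta 8.2 in the older naming that RefSeq gives) had 1295 and 1162 estimated counts, or 9.62% (9.12 to 10.1) and 9.93% (9.39 to 10.5) of V counts. Trbv3, V beta 16 in the older naming, had 1211 and 1127 counts, or 8.99% (8.51 to 9.49) and 9.63% (9.10 to 10.2). Trbv19, the older V beta 6, had 1217 and 1069 counts, a share of 9.08% ± 0.07 (SD, n = 2). The intervals of these 3 segments overlapped in both libraries, so their order was not resolved.

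Trbv13-3, the older V beta 8.1, came next with 1046 and 889 counts (7.68% ± 0.12, SD, n = 2), below Trbv19 with intervals that did not overlap in either library. Trbv5, the older V beta 1, had 1077 and 802 counts, a share of 8.0% (7.54 to 8.47) in technical replicate 1 and 6.85% (6.40 to 7.32) in technical replicate 2. The 5 most counted V segments held 43.3% ± 0.20 (SD, n = 2) of V counts and the 10 most counted held 74.7% ± 0.78 (SD, n = 2). The effective number of V segments, the exponential of the Shannon entropy of the shares, was 17.3 and 17.0. It would be 35 if all V segments, with the 13 pseudogenes, had equal shares. Over the 22 V genes alone the effective number was 16.9 and 16.6, where equal shares would give 22.

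**Figure D1:**
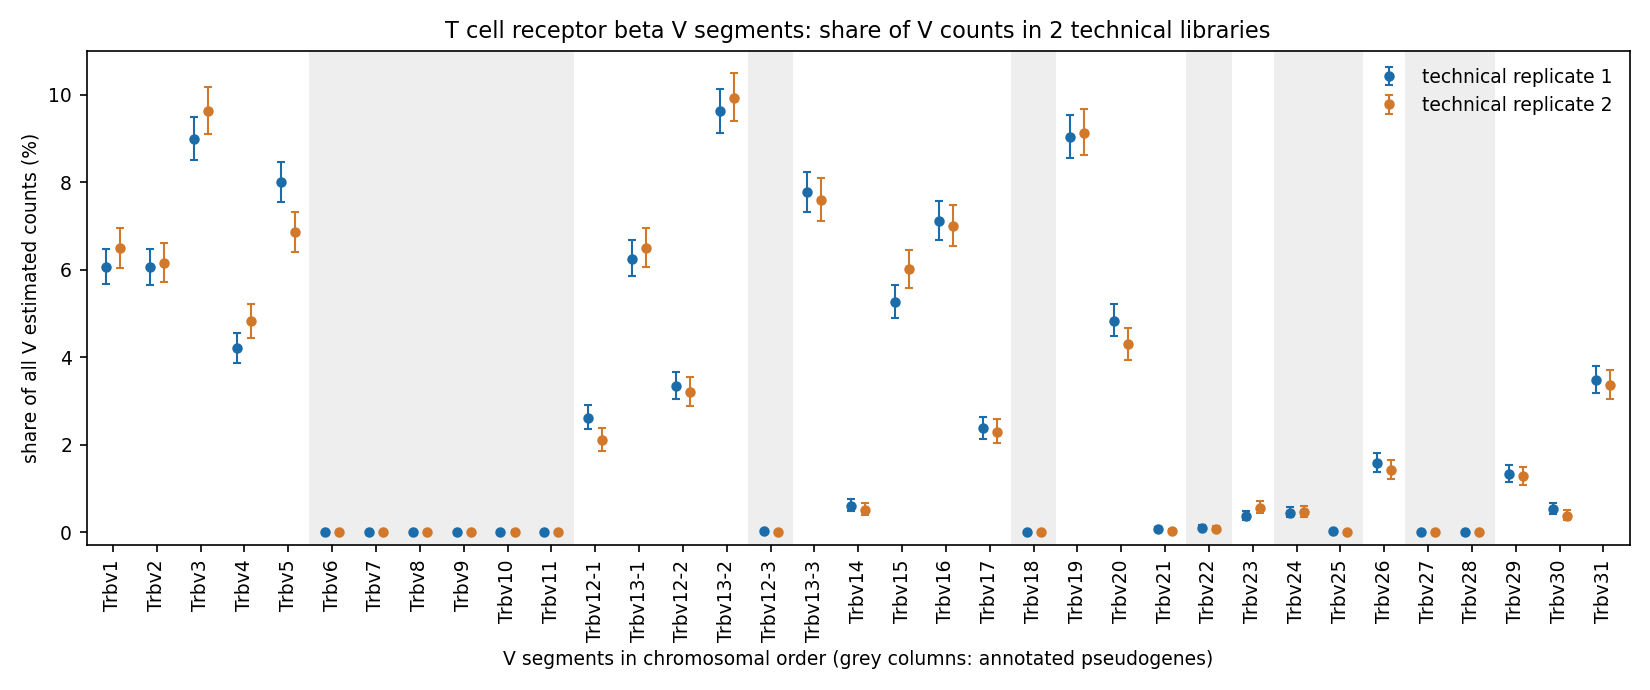
Share of V estimated counts (percent, vertical axis) for the 35 V segments in chromosomal order, with blue points for technical replicate 1, orange points for technical replicate 2 and bars for 95% Clopper-Pearson intervals. Trbv13-2, Trbv3 and Trbv19 stand above the rest, most pseudogenes (grey columns) sit at 0, and the points of Trbv5 lie apart between the libraries.

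Going down the ranking, the intervals of neighbouring segments were apart in both libraries at 6 of 34 steps. The 34 include the steps among the 8 pseudogenes at 0 in both libraries, which could not be apart. These steps separated Trbv19 from Trbv13-3, Trbv4 from Trbv31, Trbv12-2 from Trbv12-1, Trbv17 from Trbv26, Trbv29 from Trbv14, and Trbv30 from Trbv22. Between such steps the order of neighbours did not exceed counting error in both libraries. Over the 22 V genes the shares of the 2 libraries had a Spearman rho of 0.99, which is a description of 2 libraries from the same cells.

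Families with related sequences differed in level. The 3 Trbv13 genes held 23.8% ± 0.27 (SD, n = 2) of V counts and the 3 Trbv12 segments, of which Trbv12-3 is a pseudogene, held 5.64% ± 0.47 (SD, n = 2). Within the Trbv12 family, Trbv12-2 had 450 and 375 counts, Trbv12-1 had 352 and 246, and Trbv12-3 had 2 and 0. Trbv12-1 and Trbv12-2 share 88.3% of their aligned bases, and Trbv13-2 and Trbv13-3 share 90.6%. Even so, 332 of the 336 windows of 50 nt in Trbv12-2 and 290 of the 291 in Trbv13-2 occurred in no other gene's transcripts.

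Trbv4 and Trbv5 were the exceptions among V genes. Both lie within 5830405F06Rik, a lincRNA gene on the same strand (41055883 to 41063102). Only 96 of the 344 windows of Trbv4 and 72 of the 319 windows of Trbv5 occurred in no other gene. The larger table gave the lincRNA 15 and 21 counts (1.45 and 2.32 TPM), against 566 and 564 for Trbv4. How reads were divided between these genes was not tested, so the values of Trbv4 and Trbv5 are uncertain.

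At the low end, Trbv21 had 9 and 3 counts, a share of 0.0668% (0.0306 to 0.127) and 0.0256% (0.0053 to 0.0749). It was the lowest of the 22 V genes, and the most counted V gene had 205 times its summed counts (144 times in technical replicate 1 and 387 times in technical replicate 2). Trbv30 followed with 70 and 43 counts, Trbv23 with 50 and 65, and Trbv14 with 81 and 60. The intervals of Trbv23, Trbv24 and Trbv30 overlapped in both libraries, so these low shares were not ranked.

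Among the pseudogenes, 5 of 13 had a count in either library. Their summed share of V counts was 0.557% and 0.530%. Trbv24, the pseudogene with the stop codon shown above, made up most of this with 59 and 53 counts (15.9 and 16.2 TPM). That level was close to Trbv23 (13.5 and 19.9 TPM) and Trbv30 (19.7 and 13.7 TPM), which are V genes. Trbv22 had 12 and 8 counts, and each of the other pseudogenes had at most 2. The 8 pseudogenes at 0 in both libraries may each hold up to 0.0223% of V counts in technical replicate 1 and 0.0256% in technical replicate 2, from the 3 counts that a count of 0 allows. For Trbv8 none of the 236 windows was unique, so its count of 0 depends on how shared reads were divided. The gene listed as sharing its windows, AC153851.1 on the same strand, had 3 and 2 counts in all.

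The V segments are arranged with 34 on the strand of the C genes, upstream of Trbd1, and Trbv31 on the opposite strand, 3′ of Trbc2. Trbv31, the older V beta 14, is joined by inversion and not by deletion. It had 469 and 393 counts, a share of 3.42% ± 0.09 (SD, n = 2), which placed it in rank 13 of 35. The transcript table divided its estimated counts between 2 transcripts, and Trbv31-201 held 51.7% of them in technical replicate 1 and 32.4% in technical replicate 2. Among the 21 V genes upstream, share and position had a Spearman rho of -0.57, with higher shares further from the D and J segments. A stretch of 251 kb without V segments lies between Trbv30 and Trbd1.

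Per length the leading segment was the same and the order behind it changed. By TPM the share of Trbv13-2 was 11.6% ± 0.31 (SD, n = 2), with levels of 358 and 364 TPM. Trbv19, whose transcript of 566 nt is the longest of all V segments, had a TPM share of 6.06% ± 0.07 (SD, n = 2) against 9.08% by counts, which moved it from rank 3 to rank 7. By TPM it lay below Trbv13-3 (9.10% ± 0.10, SD, n = 2), the reverse of their order by counts, and Trbv5 (8.03%) lay above Trbv3 (7.91%). The gap of Trbv19 between counts and TPM, 1.503 times in technical replicate 1 and 1.494 in technical replicate 2, was the widest among the V genes. The effective number by TPM was 17.4 and 17.2.

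Matched by gene ID without its version, 38 of the 53 members were found in the smaller table. The 15 without a match were the 13 V pseudogenes, Trbv4 and Trbj2-6. Whether any of them, such as Trbv4, stood there under another ID was not tested. Over the 21 V genes in both tables the shares had a Spearman rho of 0.99, but the range was compressed. Trbv3 had the most counts in the smaller table (574 and 549), a share of 8.26% against 7.56% for Trbv13-2. The intervals of these segments overlapped there in both libraries. Trbv13-2 had 520 and 508 counts there, which was 0.40 and 0.44 of its estimated counts, while Trbv14 had 82 and 61, which was 1.01 and 1.02 of its estimated counts. Taken over the same 21 genes in both tables, the shares of Trbv14, Trbv23, Trbv29 and Trbv30 differed by more than 1.5 times, all higher in the smaller table, and the widest gap was 1.91 times for Trbv30. With each table's own V total as the denominator, which in the larger table includes Trbv4 and the pseudogenes, Trbv12-1, Trbv12-2, Trbv21 and Trbv26 also passed 1.5 times, which makes 8.

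Over all genes the smaller table was compressed as well, at lower ratios than in Trbv14 and Trbv13-2. Among 22157 other genes the counts of the smaller table reached at most 1.97 per exon base in technical replicate 1 and 1.96 in technical replicate 2, both in mt-Cytb. Estimated counts reached 139 and 118 per base, in Actb. In technical replicate 1 the median ratio of the smaller to the larger table fell from 0.42 in genes with 0.03 to 0.1 estimated counts per base to 0.019 in genes above 10. At 0.1 to 0.3 the median was 0.43, while Trbv14, in that range, had 1.01. At 3 to 10 the median was 0.059, while Trbv13-2, in that range, had 0.40. How the smaller table limits counts per base is not given in the sources used here, and the step responsible was not tested. V segments reached at most 1.53 counts per base there.

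**Figure D2:**
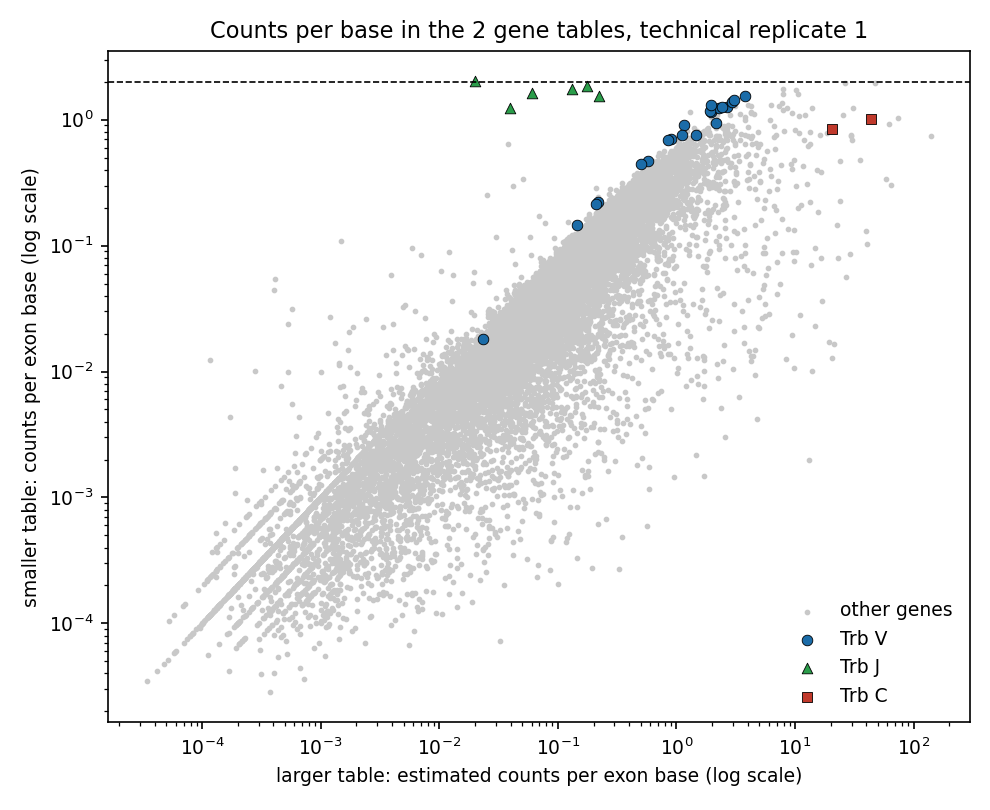
Counts per exon base in the smaller table (vertical, log scale) against estimated counts per exon base in the larger table (horizontal, log scale) in technical replicate 1, with grey dots for other genes, blue circles for V, green triangles for J and red squares for C segments. The dashed line marks 2 counts per base, which no other gene passed. D segments and the J segments at 0 in the larger table are not drawn. Some of these lie above the line, such as Trbj2-7 at 2.15 and Trbd1 at 4.17 counts per base. The V segments bend below a straight line at high levels and the C segments lie far to the right at about 1 count per base.

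D segments and many J segments had counts only in the smaller table. In the larger table an entry's effective length was its length less 49 nt, so both D segments and 8 of 14 J segments had an effective length of 0 and were listed at 0. The other J segments had effective lengths of at most 4 nt, and very few counts were turned into high TPM values. Trbj1-3, with 12 and 11 counts, was listed at 306 and 587 TPM. Levels of J segments in TPM are therefore not comparable with those of V or C segments.

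In the smaller table Trbd1 had 50 and 37 counts and Trbd2 had 52 and 50. The share of Trbd2 in D counts was 51.0% (40.9 to 61.0) and 57.5% (46.4 to 68.0), and both intervals include equal counts. Whether these counts came from joined transcripts was not tested, so no D use is read from them. The 13 J segments had between 63 and 102 counts in technical replicate 1, with a median of 87, and between 61 and 102 in technical replicate 2, with a median of 78. Trbj1-2 had 102 in both libraries, Trbj2-7 had 101 and 102, and Trbj2-2, the lowest when the libraries are summed, had 63 and 61. The highest J segment had 1.65 times the counts of the lowest, against 112 times for V genes in the same table (82.0 and 183 times by library).

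**Figure D3:**
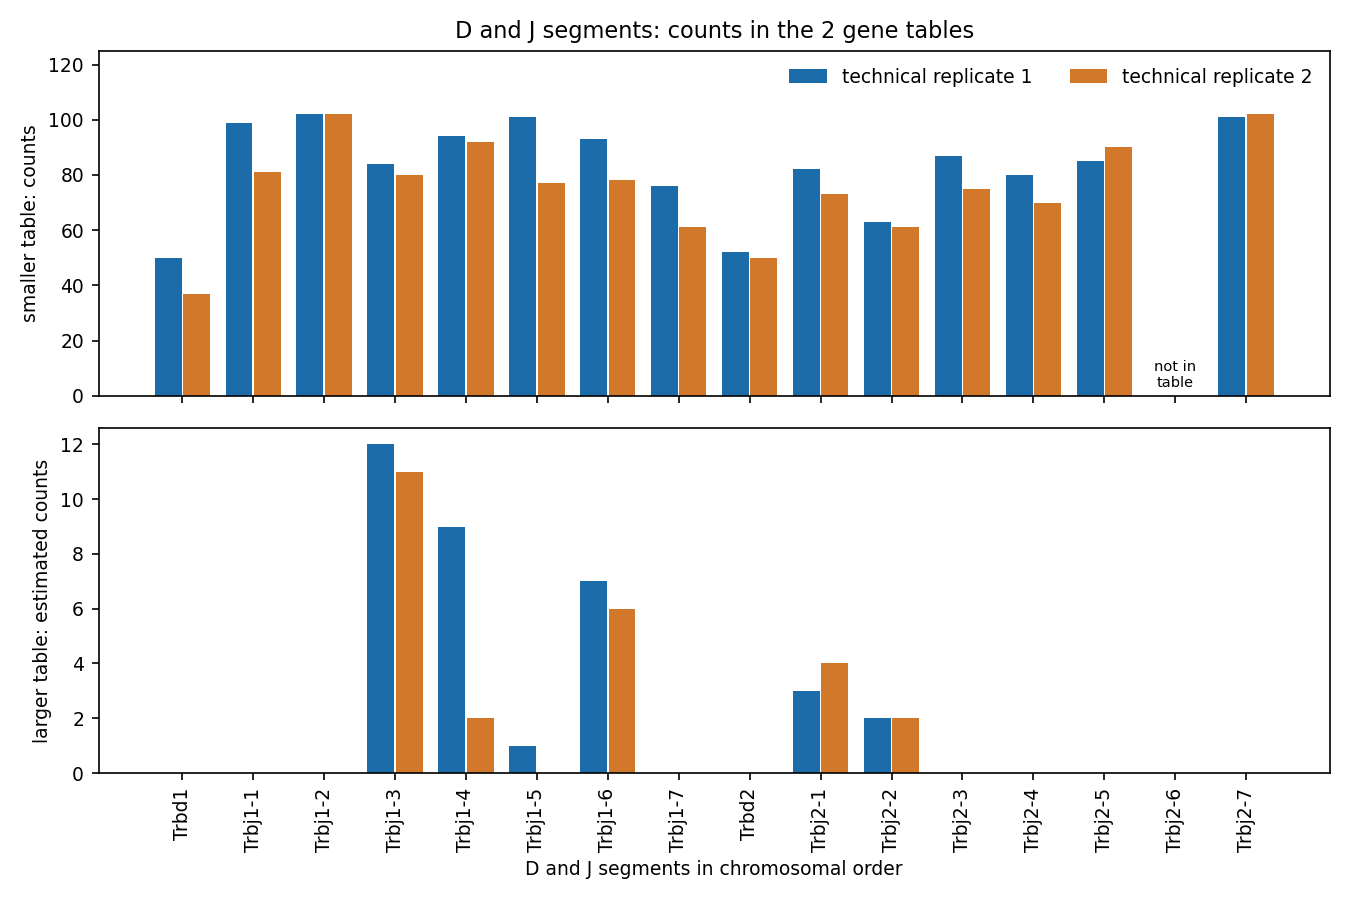
Counts of the 16 D and J segments in chromosomal order, in the smaller table (upper panel) and as estimated counts in the larger table (lower panel), with blue bars for technical replicate 1 and orange bars for technical replicate 2. In the smaller table the J segments sit between 61 and 102 and the D segments between 37 and 52, while the larger table lists most of them at 0.

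The second J cluster, downstream of Trbd2, held 43.4% (40.5 to 46.3) of J counts in technical replicate 1 and 45.2% (42.1 to 48.3) in technical replicate 2. It has 6 of the 13 J segments in this table, or 46.2%, which lies inside both intervals. J counts per base were 1.24 to 2.15 in technical replicate 1, and 4 of the 13 segments lay above the 1.97 of mt-Cytb, the highest of the other genes. The D counts per base were 3.71 and 4.17. A read can touch a segment of this size with a single base, and per position of an overlapping window of 50 nt the J counts came to 0.63 to 1.05 and the D counts to 0.82 and 0.83. What the flat J and D counts reflect, such as even use or the same limit, was not tested, so no order of J use is read from them. Trbj1-7, annotated as a J segment, lacks the letters shown above and had 76 and 61 counts. Trbj1-6, also without them, had 93 and 78.

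The constant genes carried most beta locus counts. Trbc2 had 30383 and 26294 estimated counts (3803 and 3725 TPM) and Trbc1 had 15496 and 13210 (2017 and 1949 TPM). The share of Trbc2 was 66.2% (65.8 to 66.7) and 66.6% (66.1 to 67.0), and by TPM it was 65.5% ± 0.22 (SD, n = 2). In the smaller table the counts were 705 and 694 for Trbc2 against 638 and 613 for Trbc1, a share of 52.5% (49.8 to 55.2) and 53.1% (50.4 to 55.8). Those counts were 0.023 and 0.026 of the estimated counts for Trbc2 and 0.041 and 0.046 for Trbc1.

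The 2 constant genes share 87.0% of their aligned transcript bases, and reads from the stretches that are identical cannot be assigned to either by sequence. Of the windows of 50 nt, 405 of 688 in Trbc1-202 and 360 of 643 in Trbc2-201 were found in no other gene. The shared windows start in the first 210 bases and again from base 261 to 333 of both transcripts, and all later windows differ. Trbc1 reads were assigned to the longer transcript Trbc1-202 at 69.1% and 68.6% of the gene's TPM, with the rest on Trbc1-201.

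**Figure D4:**
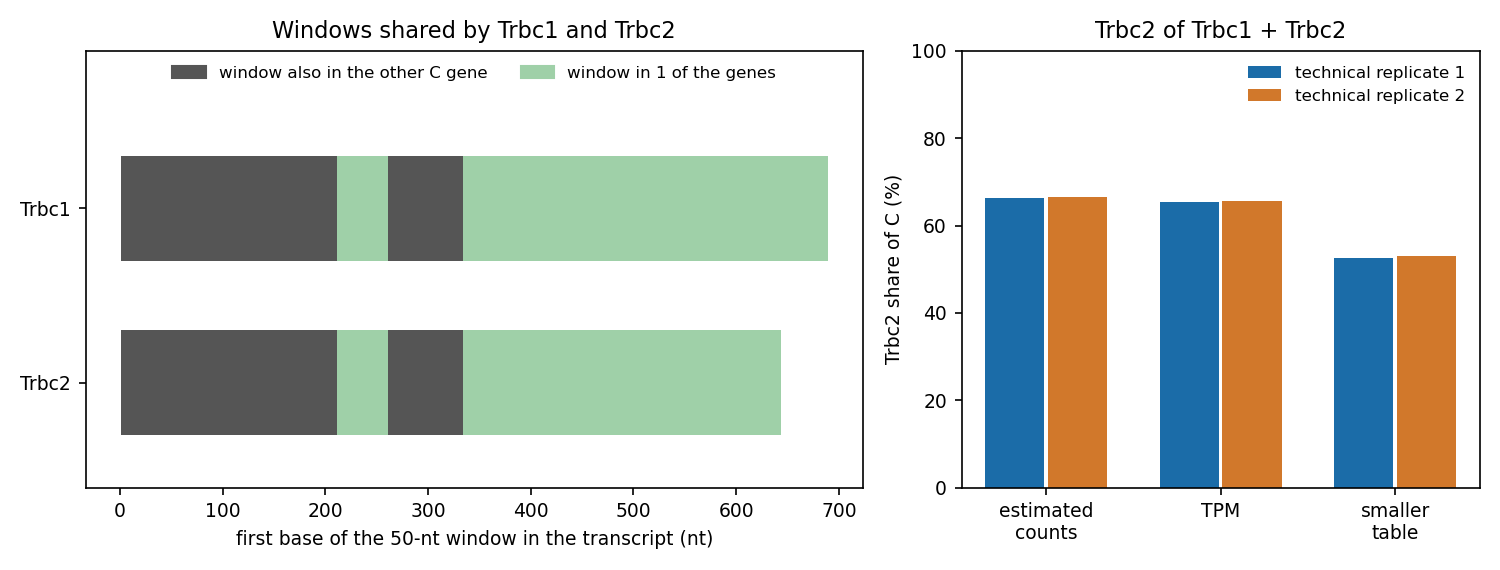
Left, start positions of windows of 50 nt along the transcripts of Trbc1 and Trbc2 (nt from the transcript start), dark where the window occurs in both genes and green where it occurs in 1. Right, share of Trbc2 in the summed counts or TPM of both genes (percent) in technical replicate 1 (blue) and 2 (orange). The share is 66.2% and 66.6% by estimated counts and 52.5% and 53.1% in the smaller table.

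Every mature beta chain transcript holds 1 V and 1 C part, but their levels per length are not strictly comparable. Annotated lengths differ between V segments, and how reads across the junction were counted was not tested. The ratio below is a description, and its cause was not tested. C segments summed to 5820 and 5674 TPM and V segments to 3151 and 3082 TPM, a ratio of 1.85 and 1.84. The alpha chain constant gene Trac stood at 3032 and 2964 TPM. As shares of all beta locus counts, V segments had 22.8% ± 0.12 (SD, n = 2) and C segments 77.2% ± 0.11 (SD, n = 2) in the larger table, against 73.0% and 14.2% in the smaller table.

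The only comparison the samples allowed was one technical library against the other. A two-sided exact binomial test on rounded estimated counts, with Benjamini-Hochberg adjustment over all genes with at least 10 summed counts, called 4 of the 29 members that had enough counts. Over all genes it called 19.2% of 17337, so the members' 13.8% was no higher than the background. All 4 were lower in technical replicate 2, where 9.78% of all genes were called lower. The test compares these libraries and no conditions.

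Trbv5 had a log2 ratio of -0.25 (adjusted p = 0.0029, exact binomial test) and Trbv12-1, with 352 and 246 counts, a log2 ratio of -0.34 (adjusted p = 0.030, exact binomial test). The constant genes differed little in size, with log2 ratios of -0.05 for Trbc1 (adjusted p = 0.012, exact binomial test) and -0.03 for Trbc2 (adjusted p = 0.041, exact binomial test). The median log2 ratio of the 29 members was -0.05, with 20 below 0, and that of all genes tested was -0.004. The mean squared deviation between the libraries, in units of the variance that read sampling alone gives, was 2.28 over 24 V segments and 4.98 over all genes. edgeR's common dispersion was estimated from these same 2 libraries taken as 1 group. It therefore takes in the differences under test, and few calls follow in part from this. With edgeR's common dispersion, which allows for that extra spread, no member was called and 1.8% of all genes were, and the smaller table also called no member, at 6.57% of all genes. With DESeq2 size factors 4 members and 19.5% of all genes were called, and without the filter on low counts 3 members and 9.53% of all genes.

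**Figure D5:**
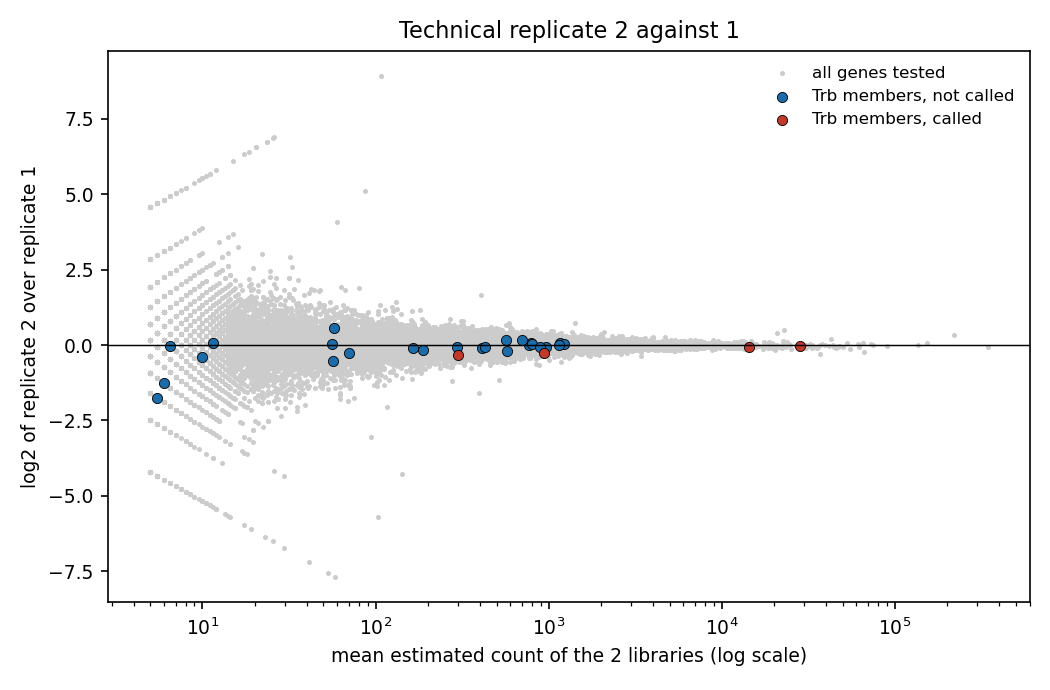
Log2 ratio of technical replicate 2 over technical replicate 1 (vertical) against the mean estimated count (horizontal, log scale), with grey dots for all 17337 genes tested, blue points for beta locus members that were not called and red points for the 4 that were. The called members Trbv5 and Trbv12-1 lie at -0.25 and -0.34, and Trbc1 and Trbc2 close to 0.

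Of the genes that take part in rearranging the locus, those of the recombinase had no counts, while the end-joining genes had RNA. Rag1 and Rag2, the recombinase that cuts at V, D and J borders, were at 0 in both libraries, which allows up to 0.195 and 0.221 CPM (counts scaled for depth alone). Dntt, the terminal transferase that adds bases at junctions, had 5 and 2 counts, and Ptcra, the partner of the beta chain before the alpha chain is made, had 5 and 1. Hmgb1, a chromatin protein that aids the recombinase, stood at 267 and 270 TPM. The end-joining genes, which many cell types use to repair breaks, ranged from Paxx at 66.4 and 64.0 TPM and Xrcc6 at 40.4 and 41.6 TPM down to Nhej1 at 5.69 and 3.45 TPM and Lig4 at 3.17 and 2.46 TPM. Of the 12 recombination and end-joining genes 9 were tested, and 2 were called, both lower in technical replicate 2, at a background of 19.2% of all genes. With edgeR's common dispersion none of the 9 was called. The 2 were Xrcc4 with a log2 ratio of -0.42 (adjusted p = 0.0018, exact binomial test) and Lig4 with -0.54 (adjusted p = 0.017, exact binomial test).

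The partners of the beta chain in the receptor complex were abundant. The CD3 chains Cd3g, Cd3d and Cd3e stood at 1154 ± 14.3, 755 ± 7.57 and 749 ± 9.998 TPM (SD, n = 2). Of 6 partner genes 5 were tested and 1 was called, at the same background of 19.2%, and none with edgeR's common dispersion. It was Cd247, the zeta chain, with 331 and 315 TPM and a log2 ratio of -0.09 (adjusted p = 0.0065, exact binomial test). Constant genes of the gamma-delta receptor were far lower than those of the beta chain, with Tcrg-C1 at 24.9 and 18.7 TPM and Trdc at 1.76 and 1.55 TPM. Sox13, a transcription factor of gamma-delta T cells, was at 0. Invariant NKT cells, whose alpha chain uses Trav11, commonly pair it with beta chains of Trbv13, Trbv29 or Trbv1. Trav11 had 35 and 0 counts, so its level was not stable between libraries of the same sample. Zbtb16, the transcription factor of invariant NKT cells, had 0 and 2, and Klrb1c, a further marker, had 11 and 15. The part of these cells in the V shares was not tested.

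Other genes inside the locus were nearly silent. Of 28 such genes 20 had 0 counts in both libraries, and together they had 85 and 78 counts. Trypsinogen, a digestive enzyme precursor of the pancreas, is encoded within the locus, and such genes were picked by Prss or Try names alone. The 7 genes with these names, 6 of them between Trbv30 and Trbd1, had 33 and 37 counts in all. Genes of the family under other names would not be among them. The highest of the 7 was Prss2, with 28 and 21 counts (2.99 and 2.46 TPM).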

How the data were processed

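Estimated counts, posterior mean counts, TPM and isoform percent per gene or transcript (mm10, GENCODE M21) were deposited by the authors, per the file headers. The smaller table held whole-number counts that the authors deposited, based on GENCODE M4, as a text that came with the libraries says. The aligner, the quantifier and their versions are not given in the sources used here. Entries without a gene name (0.174% and 0.159% of estimated counts) were left out. Gene models and sequences came from GENCODE M21, and the older V names from RefSeq.

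Estimated counts were rounded. Shares were computed within classes, with Clopper-Pearson intervals (scipy 1.17.1). Libraries were compared by an exact binomial test with TMM effective sizes (edgeR 4.0.16), a minimum of 10 summed counts and an adjusted p threshold of 0.05. A log2 ratio adds 0.5 to each count. Alternatives were DESeq2 1.42.0 size factors, no filter, edgeR's common dispersion, TPM and the smaller table, and, added after the data were seen, V shares over the genes in both tables. The test was tried on counts simulated with read sampling alone. That simulation left out the extra spread between these libraries, so it does not show how the test performs on them. Sequence identity came from Biopython 1.88 alignments.

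The V genes named were the 5 highest and 3 lowest shares, the 3 highest pseudogenes, called members, those that differed over 1.5 times between tables, and Trbv31. Others, such as Trbv4, were named after their values were seen. The members and lists were chosen with earlier results of these data known. A planned search for recombination signals and promoter motifs was not made, since those sequences were not used here.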

Additional observations from a re-analysis of the deposited data

How the results depend on the processing

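The results rest on 1 biological replicate, and the depth of J and D segments is limited by their length. The V ranking had a rho of 0.97 or more against TPM and the smaller table, but levels did not keep their values. The effective number of V segments was 17.5 in the smaller table and 16.8 over V genes only, against 17.1, and 17.0 to 17.3 with either library left out. The share of Trbv13-2 was 11.6% by TPM and 7.56% in the smaller table, against 9.77%, and 9.62% to 9.93% with either library left out. In the smaller table Trbv3 had the highest V share, 8.26%. The share of Trbc2 was 65.5% by TPM and 52.8% in the smaller table, against 66.4%, and 66.2% to 66.6% with either library left out. The second J cluster had 19.4% in the larger table, against 44.3%, and 43.4% to 45.2% with either library left out. D counts were 0 in the larger table, by its effective lengths of 0, against 87 to 102 per library. The V share of beta locus counts was 73.0% in the smaller table and 30.8% by TPM, and 22.7% to 22.8% with either library left out. The C share was 14.2% and 56.9% under these, and 77.1% to 77.3% with either library left out. Over the V genes in both tables, an alternative added after the data were seen, 4 in place of 8 shares differed by more than 1.5 times between the tables. Of the members, the exact binomial test called 4 with DESeq2 size factors (3376 of all genes), 3 without a filter (2799 of all genes, with Trbc2 lost), and 0 in the smaller table (726 of all genes), while edgeR's common dispersion called 0 (312 of all genes). The cause of these shifts was not tested. No paired analysis was possible because there is only 1 group.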
